A study of Mus musculus with 40 samples.

Results

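The frontal cortex comparison sets 10 post-KD libraries against 10 pre-KD libraries, 20 of the 40 libraries of the series, and asks which brain transcripts differ when mice carry the gut microbiota of a child on the ketogenic diet (KD) in place of the microbiota of the same child before it. Recipients were wild-type mice of the outbred Swiss Webster stock, reared germ-free and given in the methods as females of 6 to 8 weeks on a control diet, so that no mouse ate the KD. Pre-KD cohorts were colonized by gavage with the stool that 1 of 10 donors gave before the diet and post-KD cohorts with the stool of the same donor on it. Tissue was taken on day 4, and every library combines the tissue of 6 mice, which makes cohorts the replicates and hides the spread between mice within one. Libraries were chosen by their labels alone, and the genes described are the 4973 whose mean raw count over the 20 libraries was 50 or more, of 17873 genes fitted and 47643 in the table. These genes held 90.2% of all counts. The rule is blind to condition: *Rb1* entered at a mean of 50 counts, and *Elk1* and *Nyap2* stayed out at 49.95.

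The frontal cortex holds glutamatergic projection neurons arranged in layers, GABAergic interneurons that restrain them, and the glia that feed, insulate and survey both. Seizures depend on this balance of excitation and inhibition, on the ion channels that set firing, and on the energy that synapses draw from mitochondria. The gut microbiota is known to reach the brain through metabolites, immune signals and the vagus nerve, and microglia and myelin are among the features known to differ in germ-free animals.

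Total counts lay between 1188447 and 2095352 per library, and the group medians were 1700631.5 (pre-KD) and 1745816.5 (post-KD). A single long noncoding RNA locus, *Gm42418*, which overlaps ribosomal RNA sequence, took 9.79% to 18% of a library, and mitochondrial genes took 12.4% to 14.9%. The pre-KD library of donor 1 stood apart, at 61.7 on the first principal component of log2(CPM + 1), with CPM the counts scaled to a common library size, against -6.2 to 1.59 for the other 19, and 0.523% of the 4973 genes had a count of 0 there against at most 0.0804% elsewhere. The 4 libraries of donors 9 and 10 went against the stated sex: *Ddx3y*, *Eif2s3y*, *Kdm5d* and *Uty*, which are Y-linked, summed to 77.7 to 159 CPM there and to at most 2.25 elsewhere, and *Xist*, transcribed from the inactive X chromosome, was at 3.36 to 11.2 CPM against 445 to 606. Each donor gave both a pre-KD and a post-KD cohort, so these libraries are split evenly between the groups. Results are given below with and without both sets of libraries. The tissue label was checked against markers, which separated the regions in part. Of 10 hippocampal genes 8 had a lower median in frontal cortex than in hippocampus, 1 (*Bok*) a higher one and 1 an equal one, and of 19 cortical layer genes 11 had a higher median in frontal cortex and 8 a lower one, *Fezf2* of deep layers among them (31.7 against 63.8 CPM). *Spink8* and *C1ql2*, of hippocampal pyramidal and granule cells, had medians of 0 and 0.248 CPM, against 14.7 and 17.8 in the hippocampus of the same cohorts. Of 9 striatum genes, 9 had a higher median in frontal cortex than in hippocampus. Among them *Ppp1r1b* and *Drd1*, strong in striatum and present in deep cortex, had medians of 320 and 91.4 CPM against 69.5 and 14. Whether striatal tissue was taken along in the dissection was not tested.

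Most transcripts differed little between groups. The median log2 fold change of the 4973 genes, post-KD over pre-KD, was -0.01, with 2386 genes above 0 and 2587 below, and the median absolute change was 0.14 beside a median standard error (SE) of 0.21. By edgeR's quasi-likelihood test, 292 genes had an unadjusted p under 0.05, 138 higher and 154 lower post-KD. That is 5.87% of the genes (2.77% higher and 3.1% lower), and a threshold of 0.05 passes 5% of genes when none differs. Over all 17873 genes fitted the share was 9.68%. After Benjamini-Hochberg adjustment over all genes fitted, 1 gene passed 0.05, *Cwc22*, which is 0.0201% of the 4973. The next smallest adjusted p was 0.122, shared by 35 genes. DESeq2 gave 358 genes at unadjusted p under 0.05 and 2 after adjustment, *Nat14* and *Gm15459*, with *Cwc22* at 0.0644.

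There were 7 genes with changes of more than 1 log2 unit, 4 upward and 3 downward, and each had an unadjusted p under 0.05. What could be resolved depended on depth: the smallest change at unadjusted p under 0.05 was 0.44 among genes averaging 50 to 100 counts and 0.14 among those averaging 500 or more, where the median SE was 0.27 and 0.11. The share passing was 5.25%, 5.71%, 6.87% and 7.67% in bins of 50 to 100, 100 to 200, 200 to 500 and 500 or more counts. In 0 genes did the 2 groups fail to overlap, a share of 0%. With the donor as a block, which compares the 2 cohorts of each donor, 294 genes (5.91%) passed the unadjusted threshold and 230 of them were among the 292. The adjusted count with the block was 2, *Cwc22* and *Ttr*.

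**Figure D1:**
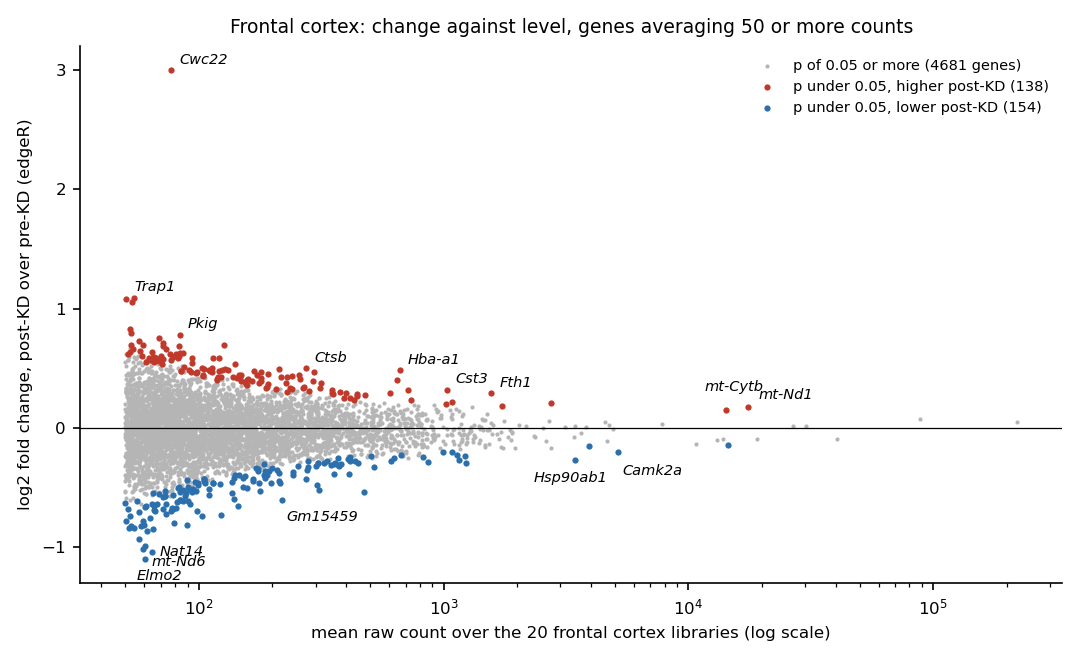
Log2 fold change in the frontal cortex, post-KD over pre-KD, against the mean raw count over the 20 libraries on a log scale, for 4973 genes. Grey points have an unadjusted p of 0.05 or more, red points (138) are higher and blue points (154) lower post-KD at p under 0.05. The points narrow toward 0 as counts grow, and *Cwc22*, at 3.0, lies far above the rest.

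*Cwc22* (chr2:77881159-77946375, GRCm38) encodes a splicing factor on which assembly of the exon junction complex depends. As background, the locus is known to vary in copy number among mouse stocks. Pre-KD libraries of donors 1 to 10 had 23.9, 2.82, 7.83, 8.93, 6.29, 8.74, 14.3, 2.78, 0 and 20.7 CPM. Post-KD libraries of the same donors had 23.3, 113, 7.47, 276, 5.12, 41.5, 38, 106, 160 and 8.4 CPM. The groups overlapped: the cohorts of donors 2, 4, 6, 7, 8 and 9 lay above every pre-KD library, while those of donors 1, 3, 5 and 10 lay below their own pre-KD value. Mean levels were 9.63 ± 7.82 CPM in the pre-KD and 77.9 ± 87.6 CPM in the post-KD group (mean ± SD, n = 10, as for all such values), a log2 fold change of 3.0 (SE 0.44), with an adjusted p of 3.73e-05 by edgeR. This call is lost with other tools, at adjusted p = 0.0644 by DESeq2 and 0.77 by limma-voom, and a permutation test over libraries of log2(CPM + 1) gave an unadjusted p of 0.00544.

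In hippocampus of the same cohorts *Cwc22* was again high in the post-KD cohorts of donors 2, 4, 8 and 9, at 93, 293, 100.1 and 235 CPM. Post-KD cohorts of donors 6 and 7, high in frontal cortex, were at 0.81 and 0 CPM in the hippocampus, and those of donors 3 and 5 were higher there, at 32.6 and 51.4 CPM. Of the read-length words of 69 bases in *Cwc22* transcripts, 13.5% also occur in transcripts of other annotated genes. Those are 7 predicted genes with 835 shared words each, *Gm13691*, *Gm13693*, *Gm13694*, *Gm13695*, *Gm13696*, *Gm13697* and *Gm13698*, and *Gm13727*, named here after their values were seen, each with 0 counts over all 20 libraries. Copy number was not measured in these files.

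**Figure D2:**
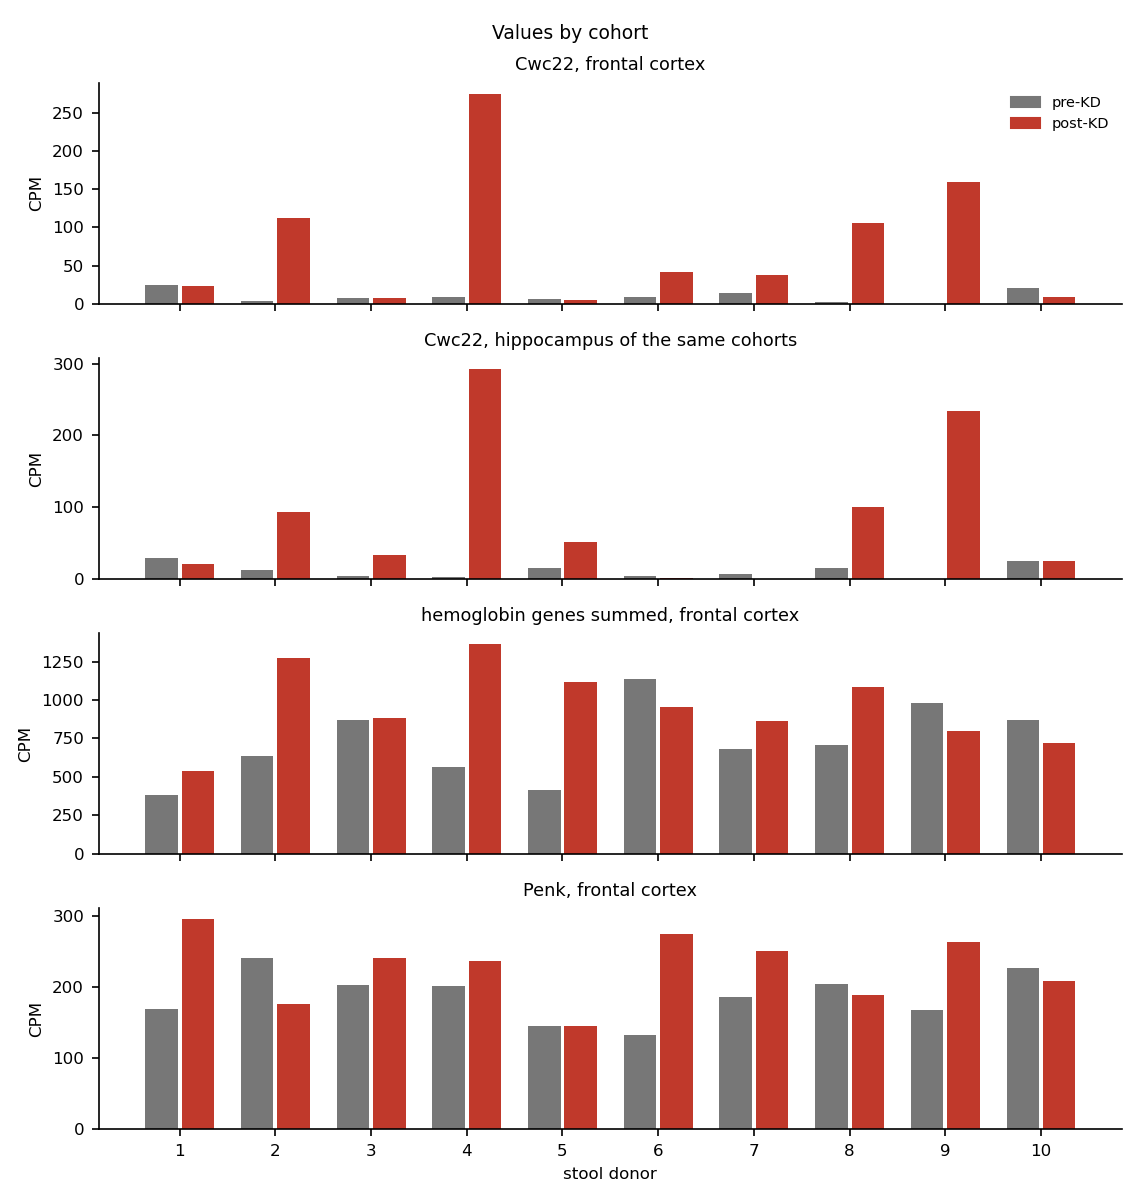
CPM by stool donor, pre-KD in grey and post-KD in red, 1 bar per cohort, for *Cwc22* in frontal cortex, *Cwc22* in hippocampus, the hemoglobin genes summed in frontal cortex, and *Penk* in frontal cortex. *Cwc22* is high in both regions post-KD for donors 2, 4, 8 and 9, and hemoglobin is higher post-KD for 7 of 10 donors.

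The 12 higher genes with the smallest p differ in function. *Ctsb*, the lysosomal protease cathepsin B, ranged from 76.1 to 176 CPM pre-KD (median 141) and from 156 to 232 post-KD (median 190). It was higher in 9 of 10 donors and 7 post-KD libraries exceeded every pre-KD one, with a log2 fold change of 0.50 (SE 0.15, p = 0.000994). *Cst3*, cystatin C, a secreted inhibitor of such proteases, was 537 ± 73.3 CPM pre-KD and 672 ± 92.6 post-KD and was higher in 10 of 10 donors (0.32, SE 0.10, p = 0.00152). *Fth1*, the ferritin heavy chain that stores iron, was 819 ± 136 and 1003 ± 139 CPM and higher in 7 of 10 (0.29, SE 0.10, p = 0.00295). Overlap between groups remained in each of these 3 genes.

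*Pkig*, an inhibitor of protein kinase A, had a median of 34.9 CPM pre-KD (24.1 to 50.3) and 59.2 post-KD (28.8 to 90.5), with 9 post-KD libraries above every pre-KD one and a log2 fold change of 0.78 (SE 0.23, p = 0.00119). *Trap1*, the mitochondrial member of the Hsp90 family, averaged 18.6 ± 9.96 CPM pre-KD and 39.7 ± 18.4 post-KD (1.08, SE 0.34, p = 0.0018). Others were *Phf20*, a subunit of a histone acetyltransferase complex (0.69), *Hnrnpk*, an RNA-binding protein (0.50), *Nptx1*, a pentraxin that gathers AMPA receptors at synapses (0.44), *mt-Nd1* (0.18) and *Hba-a1*, alpha globin (0.49). Adjusted p was 0.122 for each of these genes beside *Cwc22*.

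The lower gene with the smallest p, *Gm15459* (chr5:5781615-5783555, GRCm38), is a processed pseudogene, so its counts are set beside its parent gene. It matches the coding sequence of *Hspa8*, the constitutive cytosolic Hsp70 chaperone, over 1941 bases with 5 differences (99.74% identity), and 97.8% of its 69-base words occur in transcripts of other annotated genes. Stretches around 2 of the 5 differences, at positions 54 to 174 and 489 to 609 of the pseudogene, are shown from GENCODE M21 transcripts because they show how few bases can assign a read, with the differing base in capitals (G114A and C549T, the *Hspa8* base first, counted from 1 at the first base of the pseudogene).
Gm15459: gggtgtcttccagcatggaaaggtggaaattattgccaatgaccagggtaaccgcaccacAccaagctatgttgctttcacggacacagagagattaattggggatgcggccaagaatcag
Hspa8: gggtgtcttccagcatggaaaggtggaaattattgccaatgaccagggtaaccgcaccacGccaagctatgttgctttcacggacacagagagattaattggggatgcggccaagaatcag
Gm15459: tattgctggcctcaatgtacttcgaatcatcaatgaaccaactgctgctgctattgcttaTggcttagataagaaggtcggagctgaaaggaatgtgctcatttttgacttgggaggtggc
Hspa8: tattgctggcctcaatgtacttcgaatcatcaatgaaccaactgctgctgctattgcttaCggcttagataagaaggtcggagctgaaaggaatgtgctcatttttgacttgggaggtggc

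*Gm15459* was 158 ± 27.2 CPM pre-KD and 104 ± 16.3 post-KD and was lower in 10 of 10 donors, with 9 post-KD libraries below every pre-KD one (log2 fold change -0.61, SE 0.15, p = 8.12e-05, adjusted p = 0.122). By DESeq2 its adjusted p was 0.0104. *Hspa8*, named after its values were seen, was 32.5 ± 13.8 and 36.4 ± 12.9 CPM (0.16, SE 0.29, p = 0.586). Of the *Hspa8* words, 34.6% occur in other genes. *Gm26825*, a predicted gene annotated on the opposite strand and named here for this overlap, holds 95.4% of the *Gm15459* words. How reads were divided among the 3 genes was not tested, and the value of *Gm15459* is uncertain for both reasons.

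*Nat14*, annotated as an N-acetyltransferase, ranged from 29.2 to 69.6 CPM pre-KD and from 15.2 to 36.1 post-KD. It was lower in 10 of 10 donors, and 8 post-KD libraries lay below every pre-KD one (-1.04, SE 0.26, p = 0.00016, adjusted p = 0.122 by edgeR and 0.0137 by DESeq2). *Syngr1*, synaptogyrin 1, a membrane protein of synaptic vesicles, was 209 ± 21.7 and 150.3 ± 31.9 CPM, also lower in 10 of 10 (-0.48, SE 0.13, p = 0.000568). *Rangap1*, which activates the Ran GTPase of nuclear transport, was 219 ± 40.6 and 152 ± 36.4 CPM, lower in 9 of 10 (-0.52, SE 0.14, p = 0.000354).

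*Deptor*, an inhibitor subunit of mTOR complexes, was 75.7 ± 21.5 and 45.4 ± 16.2 CPM and lower in 9 of 10 (-0.74, SE 0.23, p = 0.00154). *Hsp90ab1*, the constitutive cytosolic Hsp90, was 2244 ± 491 and 1868 ± 151 CPM and lower in 8 of 10 (-0.26, SE 0.08, p = 0.00223). The others were *mt-Nd6* (-1.02), *Elmo2*, which activates Rac with Dock proteins (-1.10), *Zrsr1*, a splicing factor and imprinted gene (-0.73), *Rnf157*, a ubiquitin ligase (-0.66), and *Pde4d*, a cAMP phosphodiesterase (-0.69). Each of these lower genes had an adjusted p of 0.122 by edgeR.

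**Figure D3:**
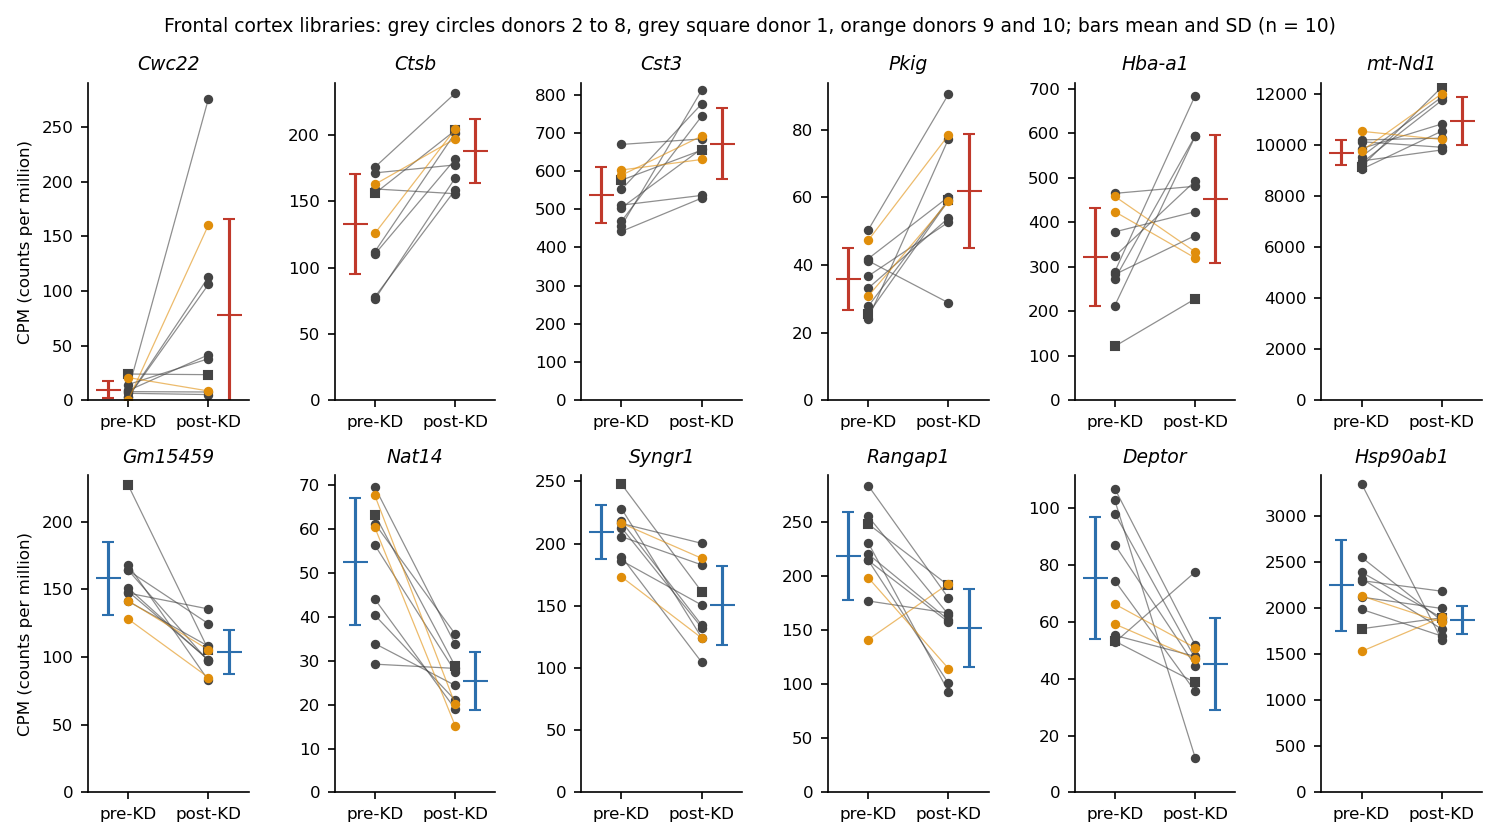
TMM-normalized CPM in each frontal cortex library for 6 higher and 6 lower genes, with a line joining the pre-KD and post-KD cohort of each donor and bars for the mean and SD (n = 10). Grey squares mark donor 1 and orange points donors 9 and 10. The groups overlap in every panel, and *Cst3* is higher and *Gm15459*, *Nat14* and *Syngr1* lower for 10 of 10 donors.

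All 24 genes chosen by smallest p kept an unadjusted p under 0.05 with the donor as a block, without the pre-KD library of donor 1, without the 4 libraries of donors 9 and 10, and with both libraries of any 1 donor left out, and all had a permutation p under 0.05. With limma-voom, *mt-Nd1* no longer passed (0.27, p = 0.0883). Fewer of the 24 passed an exact permutation test within donors, which gave p = 0.0527 for both *Zrsr1* and *Hsp90ab1*. Annotated transcripts of *Ctsb*, *Trap1*, *Hnrnpk*, *Gm15459*, *Rangap1*, *mt-Nd6*, *Zrsr1* and *Deptor*, among others, overlap exons of a gene on the other strand, and the strand setting of the counting is not given in the sources used here, so reads of the partners cannot be told apart there. The same holds for *Tspan2*, *Penk*, *Ndufa3*, *Atp5o*, *mt-Co1*, *Rpl28*, *Eif5b* and *Upf1*, described next.

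Gene groups were read from 41 lists of cell type markers and pathways, which hold 611 of the 4973 genes. Of these 611, 56 had an unadjusted p under 0.05 (9.17%, against 5.87% of all 4973), and 1, *Cwc22*, passed after adjustment. Lists were written with earlier results of these data known, so a higher share in them than over all genes is not a test. In 16 lists the count by edgeR was 0. Where a call below was lost on leaving out both libraries of 1 donor, the highest such p is given with that donor.

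**Figure D4:**
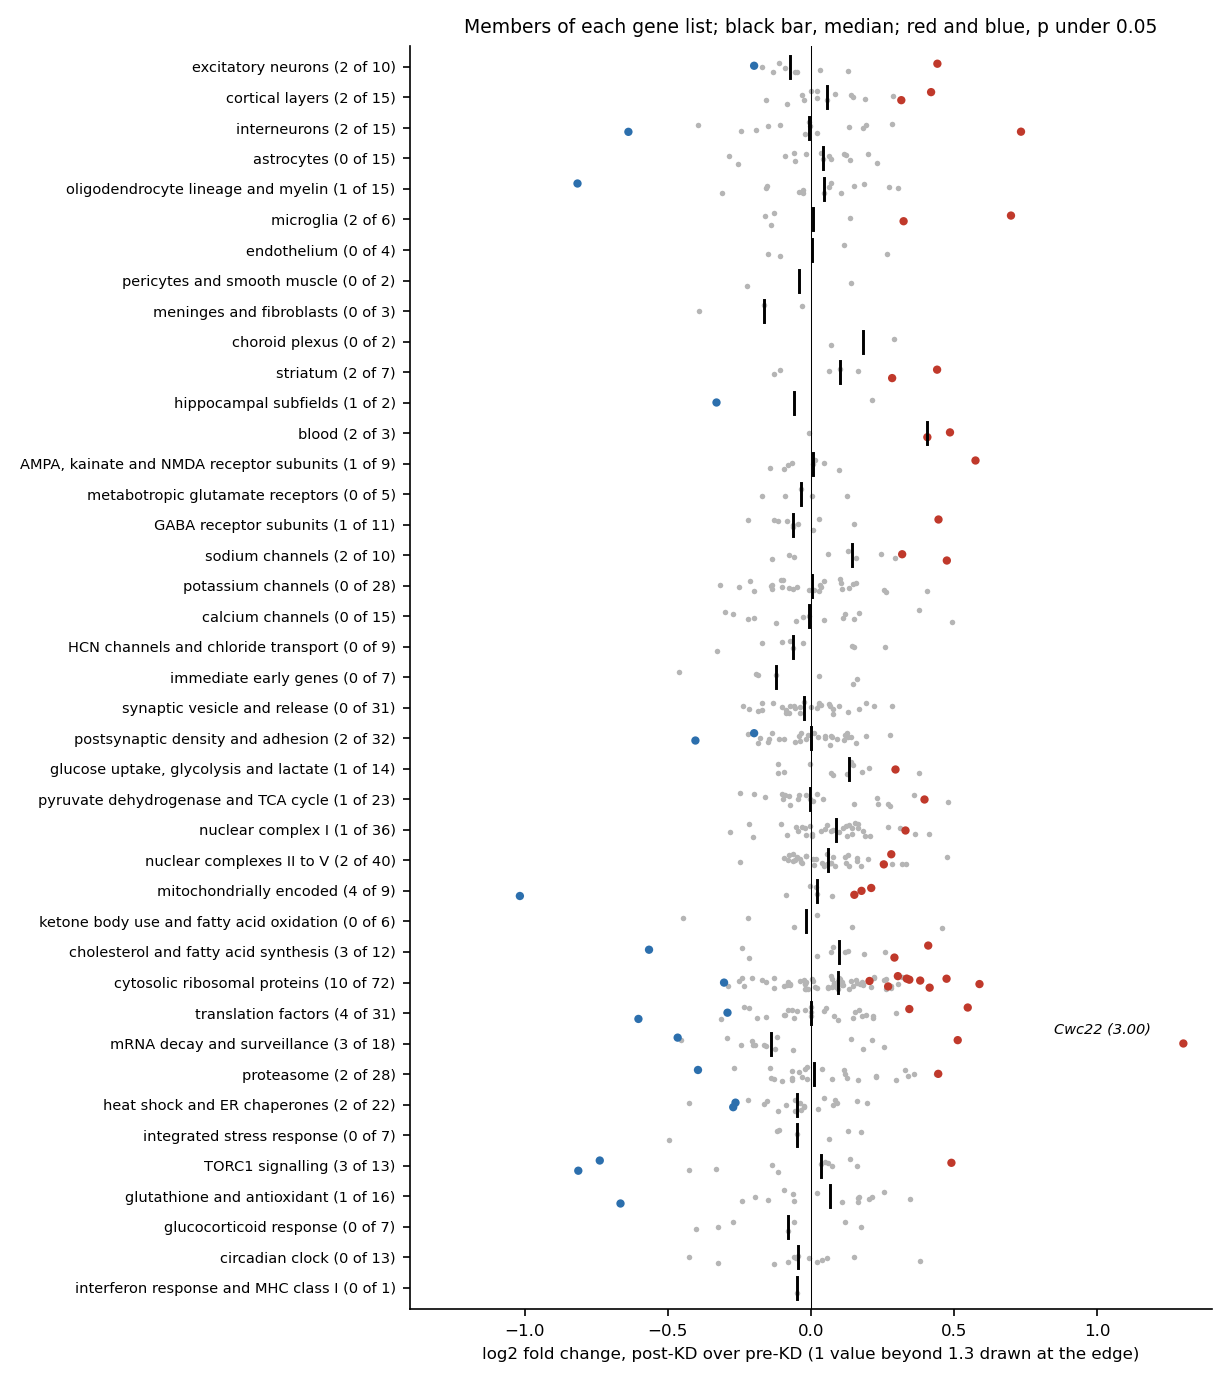
Log2 fold change, post-KD over pre-KD, of the members of 41 gene lists, 1 point per gene (*Cwc22* is drawn at the edge), with the median of each list as a black bar. Red and blue points have an unadjusted p under 0.05, and the number of these and of all members stands after each name. Medians lie between -0.17 and 0.41, and red and blue points occur on both sides within several lists.

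Cell type lists were not tested as sets, and calls among their members were few. Astrocyte markers had 0 of 15 members at unadjusted p under 0.05 (median 0.04), and *Slc1a2*, the main glutamate transporter, was 1555 ± 225 and 1623 ± 143 CPM. Of 15 oligodendrocyte and myelin genes 1 passed, *Tspan2*, a tetraspanin of myelinating cells, at 39.4 ± 18.8 and 22.4 ± 10.9 CPM and lower in 10 of 10 donors (-0.82, p = 0.0124, 0.0503 without donor 5), while *Mbp*, myelin basic protein, was 1131 ± 197 and 1099 ± 117 CPM. Of 10 excitatory neuron genes, *Camk2a*, the calcium and calmodulin dependent kinase of excitatory synapses, was lower (-0.20, p = 0.00818, 0.0574 without donor 8) and *Nptx1* higher.

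Of 15 cortical layer genes 2 were higher: *Pcp4*, a calmodulin-binding protein of deep layers, at 376 ± 93.5 and 467 ± 54.5 CPM (0.32, p = 0.00639), and *Ntng1*, netrin G1 (0.42, p = 0.0284, 0.105 without donor 6). Of 15 interneuron genes, *Crh*, corticotropin-releasing hormone, was higher (0.73, p = 0.0316, 0.153 without donor 6) and *Calb2*, calretinin, lower (-0.64, p = 0.036, 0.173 without donor 9, 0.0512 with the donor block and 0.0569 by DESeq2).

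Of 18 microglia markers 6 reached 50 counts and 2 of these were higher, among them *Cst3*, described above. The 18 markers summed to a median of 875 CPM pre-KD and 1039 post-KD, higher in 9 of 10 donors, and *Cst3* supplies much of that sum. The more cell-specific markers *Cx3cr1*, *Csf1r*, *C1qa* and *Ctss*, named after their values were seen, had log2 fold changes of 0.14, -0.13, -0.16 and -0.14. In bulk tissue, fewer cells of a type and less RNA per cell cannot be told apart.

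Markers of neighboring tissue differed in part. Of 3 blood genes 2 were higher: *Hba-a1* at 323 ± 111 and 452 ± 144 CPM, higher in 8 of 10 donors (0.49, SE 0.15, p = 0.00163), and *Hbb-bs*, adult beta globin, at 324 ± 128 and 430 ± 113, higher in 6 of 10 (0.41, p = 0.00691, 0.052 without donor 4). By DESeq2 the unadjusted p of *Hbb-bs* was 0.0571, so that call is lost. *Hbb-bt* was 77.5 ± 19.2 and 77 ± 25 CPM. Of the 69-base words, 69% of those of *Hba-a1* are shared with *Hba-a2*, 51.9% of those of *Hbb-bs* with *Hbb-bt*, and 57% of those of *Hbb-bt* with *Hbb-bs*, so the counts of all 3 genes are uncertain. All hemoglobin genes summed to 383 to 1136 CPM pre-KD (median 692) and 540 to 1365 post-KD (median 918), higher in 7 of 10 donors. The ranges overlapped, and the difference in this sum was not tested. Globin transcripts are an indirect measure of blood content, and the part of blood in the other differences given here was not tested.

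Of 7 striatum genes 2 were higher, among them *Penk*, proenkephalin (0.28, p = 0.0349, 0.15 without donor 6). The other 5, among them *Ppp1r1b* at 315 ± 70.9 and 337 ± 63.3 CPM, did not pass, and the list summed to 639 to 1286 CPM pre-KD and 905 to 1375 post-KD, higher in 6 of 10 donors. *Mpped1*, a metallophosphoesterase found in hippocampal and cortical neurons, was lower (-0.33, p = 0.036, 0.112 without donor 5), and 0 of 2 choroid plexus, 0 of 3 meningeal, 0 of 2 pericyte and 0 of 4 endothelial genes passed by edgeR or DESeq2. *Ttr*, transthyretin of the choroid plexus, averaged 124 ± 179 and 153 ± 120 CPM. Its log2 fold change was 0.29 (adjusted p = 0.991) without a block and 0.95 (adjusted p = 0.0157) with it, and an exact permutation test within donors gave p = 0.188.

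Genes of excitability were close to level. By edgeR 0 of 28 potassium channel genes, 0 of 15 calcium channel genes, 0 of 9 HCN and chloride transport genes and 0 of 5 metabotropic glutamate receptors had an unadjusted p under 0.05, with medians of 0.00, -0.01, -0.06 and -0.04, and by DESeq2 the counts were again 0. Without the pre-KD library of donor 1 the edgeR counts were 2, 1, 0 and 1 in the same order, and without donors 9 and 10 they were 0 in all 4 lists. The extremes among potassium channels were -0.32 and 0.40. Of 10 sodium channel genes 2 were higher, *Scn2b*, a beta subunit (0.32, p = 0.0233, 0.15 without donor 1), and *Fgf13*, an intracellular partner of these channels (0.47, p = 0.0406, 0.132 without donor 2), and the median was 0.14.

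Ionotropic receptor subunits each gave 1 higher member. *Grin3a*, a modulatory NMDA receptor subunit, was 35.6 ± 15.7 and 53 ± 16 CPM (0.57, p = 0.0317, 0.0976 without donor 4), 1 of 9 glutamate receptor genes, and *Gria2*, the AMPA receptor subunit that limits calcium entry, was 830 ± 87.6 and 834 ± 70.1 CPM. *Gabrg3*, a gamma subunit of GABA-A receptors, was 50.9 ± 15.4 and 69.3 ± 19 CPM (0.44, p = 0.0417, 0.173 without donor 9 and 0.0592 with the donor block), 1 of 11 GABA receptor genes.

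At the synapse, 0 of 31 vesicle and release genes passed by edgeR and 2 by DESeq2 (median -0.03), with *Syt1*, the calcium sensor of release, at 2075 ± 169 and 1970 ± 130 CPM. *Syngr1*, described above, was not on that list. Of 32 postsynaptic and adhesion genes 2 were lower, *Camk2a* and *Iqsec2*, an exchange factor of the postsynaptic density (-0.40, p = 0.0356, 0.124 without donor 8), and 16 members lay above and 16 below 0. Of 7 immediate early genes 0 passed by edgeR or DESeq2, and *Egr1*, a readout of recent activity, was 220 ± 72.2 and 192 ± 71 CPM.

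Energy genes gave mixed results. Of 9 mitochondrially encoded genes above the count minimum, 3 were higher and 1 lower. *mt-Nd1*, of complex I, was 9706 ± 493 and 10970 ± 941 CPM (0.18, SE 0.05, p = 0.00118), *mt-Co1*, of complex IV, 1496 ± 147 and 1730 ± 157 CPM (0.21, p = 0.00749), and *mt-Cytb*, of complex III, 7957 ± 898 and 8836 ± 758 CPM (0.15, p = 0.0116). *mt-Nd6*, the one protein gene of the opposite mitochondrial strand, was 48.3 ± 15.9 and 23.7 ± 10.5 CPM and lower in 8 of 10 donors (-1.02, SE 0.29, p = 0.000661). It overlaps the end of *mt-Nd5* on the other strand, and 42.5% of the *mt-Co1* words occur in other genes, so both counts are uncertain. Genes chosen after their values were seen, the 8 mitochondrial tRNA genes above the count minimum, all had changes below 0, from -0.10 to -0.57, and 2 had a p under 0.05. Over the mitochondrial chromosome 6 of 17 genes (35.3%) passed, 3 higher and 3 lower. On each autosome the share was 2.87% to 6.92%, and on the X chromosome 5.56%. Whether mitochondrial genes vary together between libraries was not tested, so the shares may not be comparable.

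Of the nuclear genes of the respiratory chain, 1 of 36 complex I genes was higher, *Ndufa3* (0.33, p = 0.0472, 0.15 without donor 4), and 2 of 40 genes of complexes II to V, *Cox7c* (0.28, p = 0.0396, 0.268 without donor 3 and 0.069 by DESeq2) and *Atp5o* (0.25, p = 0.0463, 0.199 without donor 5). Other genes share 20.2% of the *Cox7c* words and 35.7% of the *Atp5o* words, so these counts are uncertain. In complex I 25 of 36 members lay above 0 (median 0.09), and in complexes II to V 27 of 40 (median 0.06), against 48% of all 4973 genes. Without the 4 libraries of donors 9 and 10 the counts at unadjusted p under 0.05 were 3 of 36 and 7 of 40, and without the pre-KD library of donor 1 they were 1 and 3. Of 23 TCA cycle genes 1 passed, and *Ldhb*, a lactate dehydrogenase subunit, was the 1 of 14 glycolysis and lactate genes (0.29, p = 0.0191, 0.121 without donor 8). Of 6 ketone body and fatty acid oxidation genes 0 passed by edgeR and 2 by DESeq2, and *Oxct1*, which activates ketone bodies for use, was 274 ± 54.9 and 264 ± 26.6 CPM.

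Lipid synthesis had 3 of 12 genes past the unadjusted threshold. *Scd2*, the brain stearoyl-CoA desaturase, was 319 ± 50.5 and 390.4 ± 45.2 CPM, higher in 9 of 10 donors (0.29, SE 0.11, p = 0.00912), and *Acly*, which makes cytosolic acetyl-CoA, was also higher (0.41, p = 0.0472, 0.125 without donor 8 and 0.0873 with the donor block). *Srebf2*, the transcription factor of cholesterol synthesis, was lower (-0.57, p = 0.0209, 0.0684 without donor 8). *Hmgcs1*, a sterol pathway enzyme named after its values were seen, had a change of 0.02.

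Cytosolic ribosomal proteins, the longest list, had 10 of 72 members past the unadjusted threshold (13.9%, against 5.87% of all 4973), 9 higher and 1 lower, with 49 of 72 above 0 and a median of 0.09. *Rps4x* was 53.8 ± 16 and 80.8 ± 19.9 CPM (0.59, SE 0.20, p = 0.00524), *Rpl28* 115 ± 23.2 and 150.3 ± 18.3 (0.38, SE 0.15, p = 0.0109), and *Rpl36* 87.4 ± 22.1 and 121 ± 41 (0.47, p = 0.00984). *Rpl21* went the other way, 236 ± 25.5 and 191 ± 42.6 (-0.30, p = 0.0196, 0.0533 without donor 6). Their summed level was 15110 to 17080 CPM pre-KD and 15720 to 17930 post-KD and was higher in 8 of 10 donors. Many processed pseudogenes copy these mRNAs: 72.7% of the *Rpl36* words, 32.2% of the *Rps4x* words and 25.6% of the *Rpl28* words occur in other genes, so these counts are uncertain, and *Rplp1* was 1113 ± 82.8 and 1057 ± 124 CPM.

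Of 31 translation factors 2 were higher, *Eif3g* (0.55, p = 0.0204, 0.0826 without donor 1) and *Eif4h* (0.34, p = 0.0464, 0.219 without donor 8), and 2 lower, *Eef1d* (-0.60, p = 0.0104) and *Eif5b* (-0.29, p = 0.0238, 0.0841 without donor 8). The list's median was 0.00.

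RNA decay and surveillance had 3 of 18 members past the threshold. Beside *Cwc22*, *Upf1*, the helicase of nonsense-mediated decay, was higher (41.8 ± 18.1 and 59.8 ± 22.1 CPM, 0.51, p = 0.0465, 0.121 without donor 7) and its partner *Upf2* lower (86.1 ± 23.6 and 62.1 ± 13.2 CPM, -0.47, p = 0.0166). Of the 18 members 12 lay below 0, and the median was -0.14.

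Of 28 proteasome genes *Psmd11*, of the lid, was higher (0.44, p = 0.0198, 0.0804 without donor 3) and *Psmb6*, a catalytic subunit, lower (-0.40, p = 0.0256, 0.0791 without donor 9). Of 22 heat shock and endoplasmic reticulum chaperones 2 were lower, *Hsp90ab1* and *Hspa5*, the main Hsp70 of the endoplasmic reticulum, at 395 ± 67.3 and 327 ± 66.4 CPM (-0.27, SE 0.12, p = 0.0202). The summed level of that list was 4615 to 6647 CPM pre-KD and 4689 to 5567 post-KD, lower in 8 of 10 donors, and *Hsp90ab1* supplies much of it.

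TORC1, the kinase complex that couples nutrients to growth, had 3 of 13 genes past the threshold. *Deptor* was lower, as was *Rraga*, a Rag GTPase that brings TORC1 to lysosomes (70.2 ± 44.1 and 39.8 ± 15.4 CPM, -0.81, p = 0.00311), while *Lamtor4*, of the Ragulator complex that anchors the Rag GTPases, was higher (0.49, p = 0.0499, 0.136 without donor 2). *Rraga* was lower in only 6 of 10 donors. *Mtor* itself, named after its values were seen, had a change of -0.12, and the list's median was 0.03.

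Of 16 glutathione and antioxidant genes *Txnrd1*, cytosolic thioredoxin reductase, was lower (-0.67, p = 0.0207, 0.0736 without donor 8). By edgeR and DESeq2 alike, 0 of 7 integrated stress response, 0 of 7 glucocorticoid response, 0 of 13 circadian and 0 of 1 interferon response genes passed. *Atf4*, the transcription factor of the stress response, was 89.6 ± 41.6 and 93.2 ± 17.9 CPM.

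Leaving out libraries moved calls in both directions. Of the 72 ribosomal protein genes, 14 passed without the pre-KD library of donor 1 and 12 without donors 9 and 10, against 10 with all libraries. Counts also went from 1 to 2 under both for glycolysis and lactate genes, and from 0 to 1 under both for synaptic vesicle genes. Without the pre-KD library of donor 1 alone, 1 ketone body or fatty acid oxidation gene passed, and without donors 9 and 10 alone, 1 astrocyte gene, 2 TCA cycle genes and 3 postsynaptic genes passed. Translation factors had 5 calls without the pre-KD library of donor 1 and 2 without donors 9 and 10, against 4 with all libraries. For RNA decay genes the count without the pre-KD library of donor 1 was 1. Without the pre-KD library of donor 1, 338 of the 4973 genes had an unadjusted p under 0.05, 228 of them among the 292, and 10 of the 65 named genes that passed no longer did (p from 0.0542 to 0.111): *Ntng1*, *Calb2*, *Grin3a*, *Gabrg3*, *Scn2b*, *Fgf13*, *Acly*, *Upf2*, *Upf1* and *Lamtor4*. Without the 4 libraries of donors 9 and 10 the count was 337, with 188 shared, and 18 genes of the 65 no longer passed (p from 0.0504 to 0.241), among them *Crh*, *Calb2*, *Penk*, *Mpped1*, *Grin3a*, *Gabrg3*, *Scn2b*, *Ldhb*, *Acly*, *Rps4x*, *Rpl36*, *Eif5b*, *Eif4h*, *Upf1*, *Psmb6*, *Lamtor4* and *Txnrd1*. The 2 striatum calls were among them, and both blood calls were not. Permutation p over libraries was 0.05 or more for 12 of the 65: *Crh*, *Calb2*, *Penk*, *Hbb-bs*, *Iqsec2*, *Cox7c*, *Acly*, *Rpl36*, *Eif5b*, *Eif4h*, *Upf1* and *Rraga*. The exact permutation test within donors gave a p under 0.05 for only 41 of the 65.

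Hippocampus from the same cohorts allowed a test of whether the post-KD change differed between regions. Whether both regions of a cohort came from the same 6 mice is not given in the sources used here, and *Cwc22* was high in only 1 of the regions post-KD for donors 3, 5, 6 and 7, so a difference between regions may also be one between mice. Among the 4973 genes 176 (3.54%) had an unadjusted p under 0.05 for this difference, and 3 passed after adjustment, *Gm42418*, *mt-Rnr2* and *mt-Nd4*, the last named after its values were seen. In a permutation test of the within-cohort difference, p was 0.333 for *Gm42418*, 0.00438 for *mt-Rnr2* and 0.167 for *mt-Nd4*, and when only the 4973 genes were fitted 0 passed.

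Of the 24 genes with the smallest p in frontal cortex, *Ctsb* and *Hsp90ab1* had hippocampal changes of 0.43 (SE 0.18) and -0.21 (SE 0.10), with unadjusted p of 0.021 and 0.0356 by edgeR. The difference between regions was 0.13 (SE 0.25) for *Ctsb* and -0.06 (SE 0.09) for *Hsp90ab1*, with p of 0.597 and 0.519. For all 24 genes this test reuses the frontal cortex values by which they were picked, so its unadjusted p tends to be too small. *Nat14* was 0.50 (SE 0.41) in hippocampus against -1.04 in frontal cortex (difference -1.75, SE 0.56, unadjusted p = 0.00161), *Pkig* -0.66 against 0.78 (p = 0.00406), and *Gm15459* 0.15 against -0.61 (p = 0.00783). Adjusted p was 1 for each of these differences, so none passed.

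**Figure D5:**
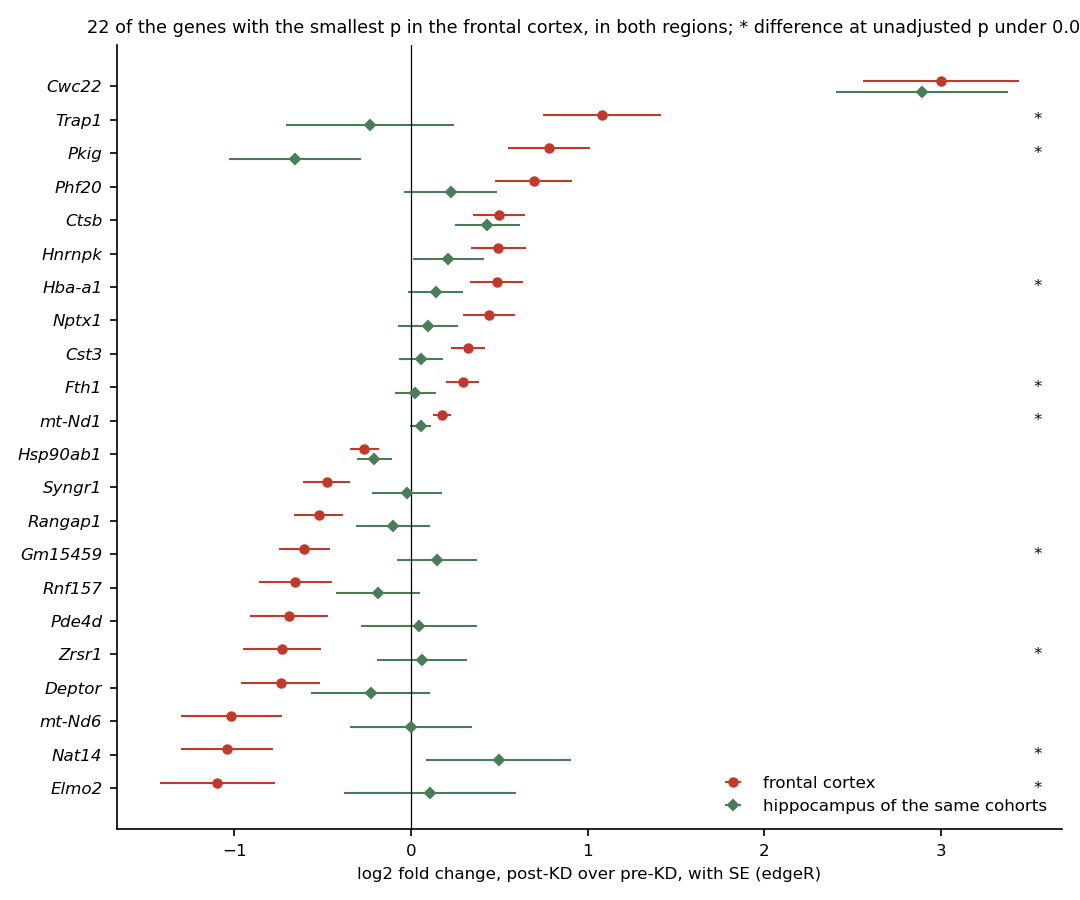
Log2 fold change, post-KD over pre-KD, with its SE, of 22 of the 24 genes with the smallest p in frontal cortex, in frontal cortex (red circles) and in hippocampus of the same cohorts (green diamonds). A star marks an unadjusted p under 0.05 for the difference between regions, a test that reuses the frontal cortex values by which the genes were picked. *Cwc22* has like values in both regions (3.0 and 2.90), and *Nat14* and *Pkig* have opposite signs.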

How the data were processed

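Brain RNA was sequenced as paired 69-base reads in 40 libraries, of which 20 from frontal cortex are described. According to the methods and the submitters' notes, the authors checked reads with FastQC 0.11.5, aligned them to mm10 with STAR 2.5.2a and counted them per gene with HTSeq 0.6.0. The deposited values are raw counts per Ensembl gene. A TruSeq kit is named in the methods and a QuantSeq kit in the list of resources. Strand setting and annotation release are not given in the sources used here. Of 47643 identifiers, 47224 were matched to GENCODE M21.

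Genes with at least 10 counts summed over a fit's libraries were tested with edgeR 4.0.16 (R 4.3.3, TMM, quasi-likelihood test without covariates, two-sided) and adjusted by Benjamini-Hochberg over all genes fitted. Levels are TMM-normalized CPM, mean ± SD. The difference between regions was tested over 40 libraries with a term per cohort. Permutation tests (scipy 1.17.1) drew 100000 resamples of log2(CPM + 1), or were exact within donors. The edgeR, DESeq2 and limma-voom fits were also run on simulated counts that held no outlying library, so that run does not cover such libraries. Total counts of 1188447 to 2095352 per library limit precision, and 0 libraries were identical.

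The donor number pairs cohorts by design. After removing group means, correlations between the 2 libraries of a donor ran from -0.0904 to 0.0713, with 0 of 10 above 0.1. The unblocked fit was kept and the block was an alternative. Others were DESeq2 1.42.0, limma-voom 3.58.1 with quality weights, no filter, filterByExpr, RLE, a fit on the 4973 genes, other count minimums, leaving out *Gm42418* and mitochondrial genes, and leaving out each donor. Permutation tests, and leaving out the pre-KD library of donor 1 or the libraries of donors 9 and 10, were added after seeing the data.

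Genes and lists were chosen with earlier results of these data known. The genes named are those at adjusted p under 0.05, the 12 higher and 12 lower with the smallest p, up to 4 members of each list with the smallest p under 0.05, each list's most abundant member, and hemoglobin genes, *Gm42418*, *Ttr* and *Xist*. A few of these genes are not reported here. Other genes are marked as named after their values were seen.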

Additional observations from a re-analysis of the deposited data

Results flagged for a closer look

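In 9 of 140 groups of 10 libraries, the highest or lowest library of a named gene lay apart from the rest by more than the 95% critical value of Dixon's ratio, gap over range, a rule that marks about 1 group in 20 by chance. Pre-KD, the library of donor 1 was apart for *Gm15459* (227 CPM against 168 for the nearest, ratio 0.595), *Zrsr1* (19.3 against 81, 0.478), *Scn2b* (76.4 against 158, 0.47) and *Upf2* (143 against 104, 0.496), and this is the library that stands apart over all genes. Donor 8 pre-KD was apart for *Fth1* (499 against 769, 0.528). *Trap1* in donor 5 pre-KD (41.9 against 24.5 CPM, 0.51) and *Lamtor4* in donor 2 post-KD (82.6 against 65.4, 0.467) were also apart. Of the 9 groups, 7 are given here.

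By edgeR the post-KD change differed between frontal cortex and hippocampus after adjustment for *Gm42418* (adjusted p = 3.74e-20), *mt-Rnr2* (3.72e-05) and *mt-Nd4* (0.0342), all among the most abundant transcripts. The permutation test of the within-cohort difference gave unadjusted p of 0.333, 0.00438 and 0.167 in the same order. The calls of *Gm42418* and *mt-Nd4* were thus not kept by that test. The within-cohort difference between regions for *Gm42418*, frontal cortex minus hippocampus in log2(CPM + 1), ran from -0.64 to 0.67 in pre-KD cohorts and from -0.54 to 0.53 in post-KD cohorts, so the groups overlapped throughout.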

How the results depend on the processing

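The count of genes at unadjusted p under 0.05 (292) ran from 236 to 319 with both libraries of 1 donor left out, and 75 of the 292 passed with every donor left out in turn. It was 174 of the 2724 genes averaging 100 or more counts (6.39%) and 383 of the 8255 averaging 20 or more (4.64%), against 5.87%. After adjustment the count of 1 became 2 with DESeq2, 3 with limma-voom (*mt-Nd2* and *mt-Nd4*, named after their values were seen, and *mt-Cytb*) and 0 among genes averaging 100 or more counts, which leaves out *Cwc22*. With the donor as a replicate block it was 2 in edgeR and 4 in DESeq2 (*Ctsb*, *Syngr1*, *Nat14* and *Gm15459*), while the unadjusted count with this block was 294. Among named genes the edgeR block put p of *Calb2*, *Gabrg3* and *Acly* above 0.05, brought in *Ttr* and *Gm42418* (p = 0.0213), and brought in *mt-Rnr2* (p = 0.0481). For the difference between regions the adjusted count of 3 became 1 with no replicate block and 0 when only genes averaging 50 or more counts were fitted. Adjusted p of *Cwc22* ran from 4.86e-16 with no filter to 0.77 with limma-voom. Of the 65 named genes that passed, 30 passed under every alternative. Changes near 0 turned sign: with 1 donor left out *Ttr* ran from -0.153 (donor 4) to 0.942, *Hbb-bt* from -0.105 to 0.081 (above 0 without donor 7, 8, 9 or 10) and *Gm42418* from -0.03 to 0.163 (below 0 without donor 2, 5 or 10). Without donors 9 and 10 together *Hbb-bt* was 0.123 and *Gm42418* -0.036, and with limma-voom *Xist* was -0.523 and *Gm42418* -0.023. The cause of these changes was not tested. Depth limits the genes averaging 50 to 100 counts, where the smallest change that passed was 0.435.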
